A study of Mus musculus with 10 samples.

Results

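The mouse mitochondrial genome carries 37 genes: 13 for proteins of the respiratory chain, 2 for ribosomal RNAs and 22 for tRNAs. They were taken from the gene count tables of 10 RNA-seq libraries by their mt- symbols, and all 37 were found among the 38293 gene identifiers counted. By the strand given in GENCODE M21 (GRCm38), 28 of them lie on the plus strand and are transcribed from the heavy-strand promoter, and are here called heavy-strand genes, and 9 run the other way and are called light-strand genes: mt-Nd6 and the tRNA genes mt-Tq, mt-Ta, mt-Tn, mt-Tc, mt-Ty, mt-Ts1, mt-Te and mt-Tp. In all, 61154 reads were listed under these genes, and 22 of the 37 had at least 1 read in some library.

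CBL0137 is a small molecule that binds DNA and traps the histone chaperone FACT in chromatin. Wild-type mouse embryonic fibroblasts (MEF, from C57BL/6J mice) were left untreated (n = 2) or kept in 1 µM CBL0137 for 24 hr (n = 2), and MEF of Trp53tm1Tyj mice, which lack p53, were left untreated (n = 1) or given the same treatment (n = 1). Lungs came from NIH Swiss mice, aged 7 weeks, 24 hr after an intravenous injection of the dextrose vehicle (n = 2) or of 60 mg/kg CBL0137 (n = 2). The sample descriptions give the lung mice as female and the design text as male. The MEF were primary cultures used within a few passages, and the replicates are described as biological, without numbers that could pair them.

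Both strands of the mitochondrial genome are transcribed as long precursors that span nearly the whole circle and are then cut at the tRNAs. Transcription of one strand gives the 2 ribosomal RNAs, most tRNAs and all the mRNAs but one. Transcription of the other strand gives the mRNA of mt-Nd6, a subunit of complex I, and a few tRNAs, and the rest of that precursor lies antisense to the heavy-strand genes and is normally degraded quickly. In the direction of mt-Nd6 the precursor passes opposite mt-Cytb first, then gives mt-Te and mt-Nd6, and then runs opposite mt-Nd5, mt-Nd4 and so on towards the ribosomal RNA genes. The libraries were made with a strand-specific kit, but the strand setting used for counting is not given in the sources used here. Only 0.789% to 1.16% of the reads in a file were counted on any gene, and the others were almost all assigned to no gene. If reads were counted against the opposite strand, a read listed under mt-Nd5 would come from RNA antisense to mt-Nd5, and a read listed under mt-Nd6 from RNA antisense to mt-Nd6. This was not tested. Every value below is therefore the number of reads listed under a gene, and not the abundance of its mRNA.

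Where genes of the 2 strands overlap, a read can only be placed by its strand. The ends of mt-Nd6 (chrM:13552-13611, minus strand) and mt-Nd5 (chrM:13506-13565, plus strand) share 14 bases, and the tRNA genes mt-Ts1 (chrM:6870-6938, minus strand) and mt-Td (chrM:6942-7011, plus strand) are neighbours on opposite strands. The first pair is shown because it overlaps across the strands, and the second because it sets a light-strand tRNA gene with reads beside a heavy-strand one without any (5′ to 3′ in the sense of each gene, from the GENCODE M21 transcripts). Capitals mark bases that the gene shares with one annotated on the other strand, which for mt-Ts1 is mt-Co1.
mt-Nd6 end: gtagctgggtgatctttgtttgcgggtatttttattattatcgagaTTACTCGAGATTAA
mt-Nd5 end: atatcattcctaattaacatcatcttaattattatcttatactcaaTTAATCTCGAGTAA
mt-Ts1: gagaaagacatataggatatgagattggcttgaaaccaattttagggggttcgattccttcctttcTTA
mt-Td: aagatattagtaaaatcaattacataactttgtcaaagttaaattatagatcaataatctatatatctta
mt-Ts1 held 39 reads over the 10 libraries and mt-Td held 0. The strands also differ in base composition: mt-Nd6 is 28.1% G and 5.97% C as written, while the 12 heavy-strand protein genes are 5.88% to 16.1% G and 22.1% to 30.0% C.

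Depth varied between libraries. The files held 1458258 to 51320983 reads, of which 16579 to 538717 were counted on genes and 241 to 19988 on mitochondrial genes. The shallowest was the second vehicle lung, with 241 mitochondrial reads, so its values are the least precise, and 3 reads, taken as the smallest number that counts as seen, were 1.24% of them. Summed over 9 lung epithelium markers, vehicle lungs held 508 to 784 counts per 1000000 gene counts (CPM, with no further scaling) and untreated wild-type MEF 0 to 7.29. Lung libraries thus held the markers of lung and MEF libraries nearly lacked them. Over 8 fibroblast genes untreated wild-type MEF held 386 to 620 CPM and vehicle lungs 19.9 to 181. Trp53 had almost no reads in any library, wild-type ones included, and does not check the genotype.

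In GENCODE M21, 17 nuclear genes hold a stretch of at least 100 bases that matches a mitochondrial gene at 90% identity or more. Only 9 of them were among the gene identifiers counted. The 11 mitochondrial genes matched include 7 with a copy at 99% identity or more (mt-Co1, mt-Co2, mt-Atp6, mt-Co3, mt-Nd3, mt-Nd4l and mt-Nd4), so reads of those 7 can be split between 2 places or dropped, depending on how the aligner treated repeated matches. mt-Nd4l, a small subunit of complex I, is shown as the extreme case: 294 of its 297 bases (chrM:9877-10173, plus strand) are identical in Gm10222 on chromosome 1, and capitals mark the 7 bases it shares with mt-Nd4.
mt-Nd4l: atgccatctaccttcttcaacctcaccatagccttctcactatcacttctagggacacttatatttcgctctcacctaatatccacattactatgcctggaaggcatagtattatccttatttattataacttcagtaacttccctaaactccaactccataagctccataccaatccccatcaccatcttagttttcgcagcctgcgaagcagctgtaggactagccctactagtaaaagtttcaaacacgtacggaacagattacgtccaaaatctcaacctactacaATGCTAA
In all, 2 treated libraries stood apart in this respect. In the second CBL0137-treated wild-type MEF library mt-Nd4l and Gm10222 held the same number of reads, 176 each, and in the first CBL0137-treated lung 36 and 49. In the other 8 libraries mt-Nd4l took 0% to 14.7% of the reads of the pair. mt-Co1, which encodes the catalytic subunit of complex IV, had 737 reads against 1 for its copy Gm13340 in the same treated MEF library and 295 against 46 in the same lung, which was 99.9% and 86.5% of the pair, against 57.8% to 69.0% elsewhere. The values of mt-Nd4l, mt-Co1 and mt-Co2 are therefore not comparable between these 2 libraries and the others. The close copies of mt-Atp6, mt-Co3, mt-Nd3 and mt-Nd4 were not counted, so the same could not be checked for these genes. Gm4076 and Gm11408, copies of mt-Nd5 and mt-Nd6, held 0 reads in the second treated wild-type MEF library. Both libraries are treated ones, and the part of this in the differences after CBL0137 and in the summed shares was not tested. Results are also given without these libraries or with the copies added where that matters.

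**Figure D1:**
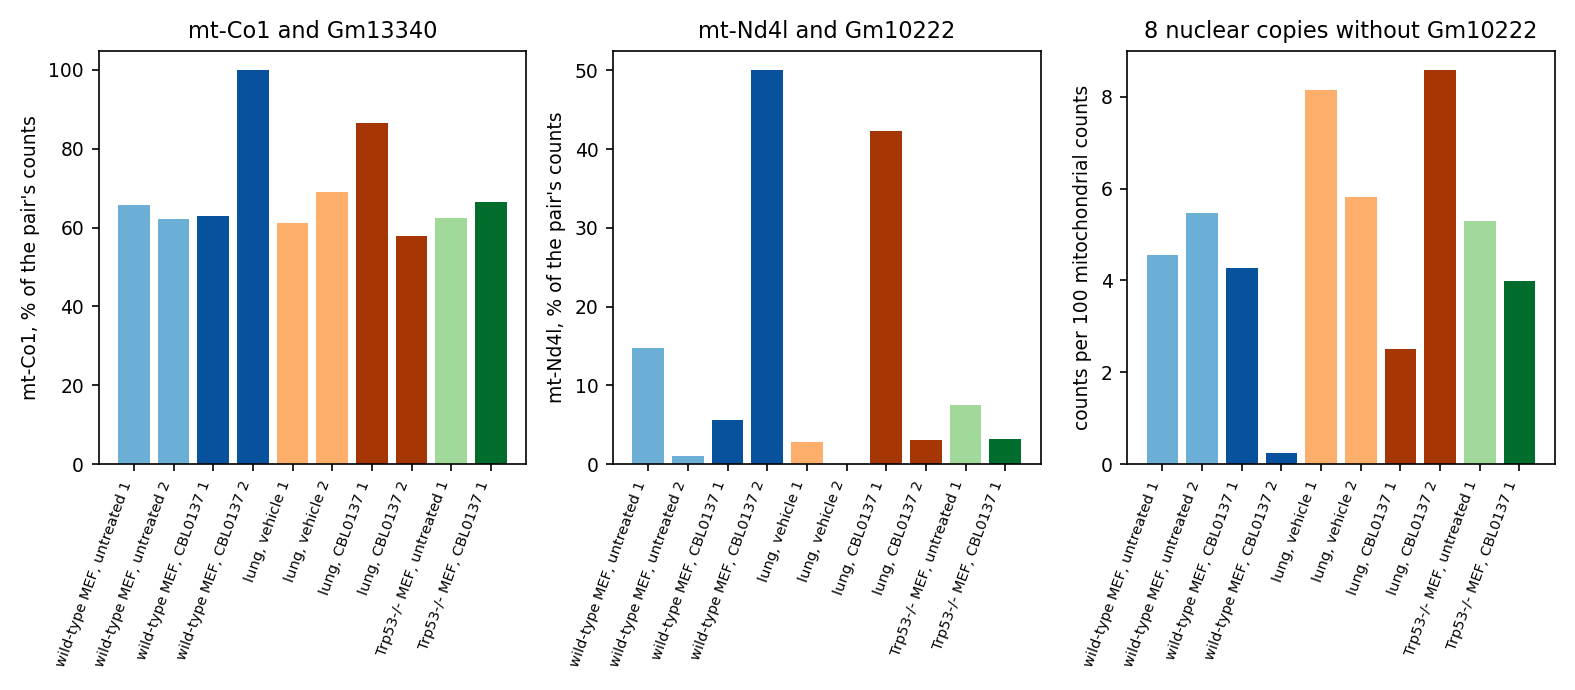
Bars give, for each of the 10 libraries, the percent of a pair's reads listed under the mitochondrial gene for mt-Co1 and Gm13340 (left) and mt-Nd4l and Gm10222 (middle), and the reads on the other 8 nuclear copies per 100 mitochondrial reads (right). The second CBL0137-treated wild-type MEF library (99.9%, 50% and 0.250) and the first CBL0137-treated lung (86.5%, 42.4% and 2.51) stand apart from the other 8.

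Reads were spread unevenly over the classes of genes. The 12 heavy-strand protein genes held 54564 reads (89.2% of the mitochondrial reads), mt-Nd6 5060, the 2 rRNA genes 1466 (2.40%), the 8 light-strand tRNA genes 64, and the 14 heavy-strand tRNA genes 0. The 14 heavy-strand tRNA genes and mt-Ta were thus at 0 in all 10 libraries. The tRNA genes are 59 to 75 bases long. Among the light-strand tRNA genes mt-Ts1 had 39 reads, mt-Te 7, mt-Tc and mt-Ty 6 each, mt-Tq 3, mt-Tn 2 and mt-Tp 1. The tRNAs were thus a class in which the light strand held more reads than the heavy strand, from fewer genes.

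Per kilobase, mt-Nd5 was the highest of the 14 heavy-strand protein and rRNA genes in 10 of 10 libraries. mt-Nd5 encodes a proton-pumping subunit of complex I and lies next to mt-Nd6 on the other strand. It held 26436 reads in all, and mt-Nd4, its neighbour and another subunit of complex I, held 9468 and ranked second in 8 libraries. The lowest was mt-Rnr1, the 12S ribosomal RNA gene at the far end, in 5 libraries and mt-Nd4l in the other 5. Reads per kilobase were mostly lower with greater distance from the start of mt-Nd6 in the direction of its transcription. Spearman's rho over the 13 genes from mt-Nd5 to mt-Rnr1 ranged from -0.929 to -0.280 between libraries, and over the 6 without a copy at 99% identity or more from -1 to -0.371. These are descriptions over genes of 1 molecule, which share a library and are not independent.

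**Figure D2:**
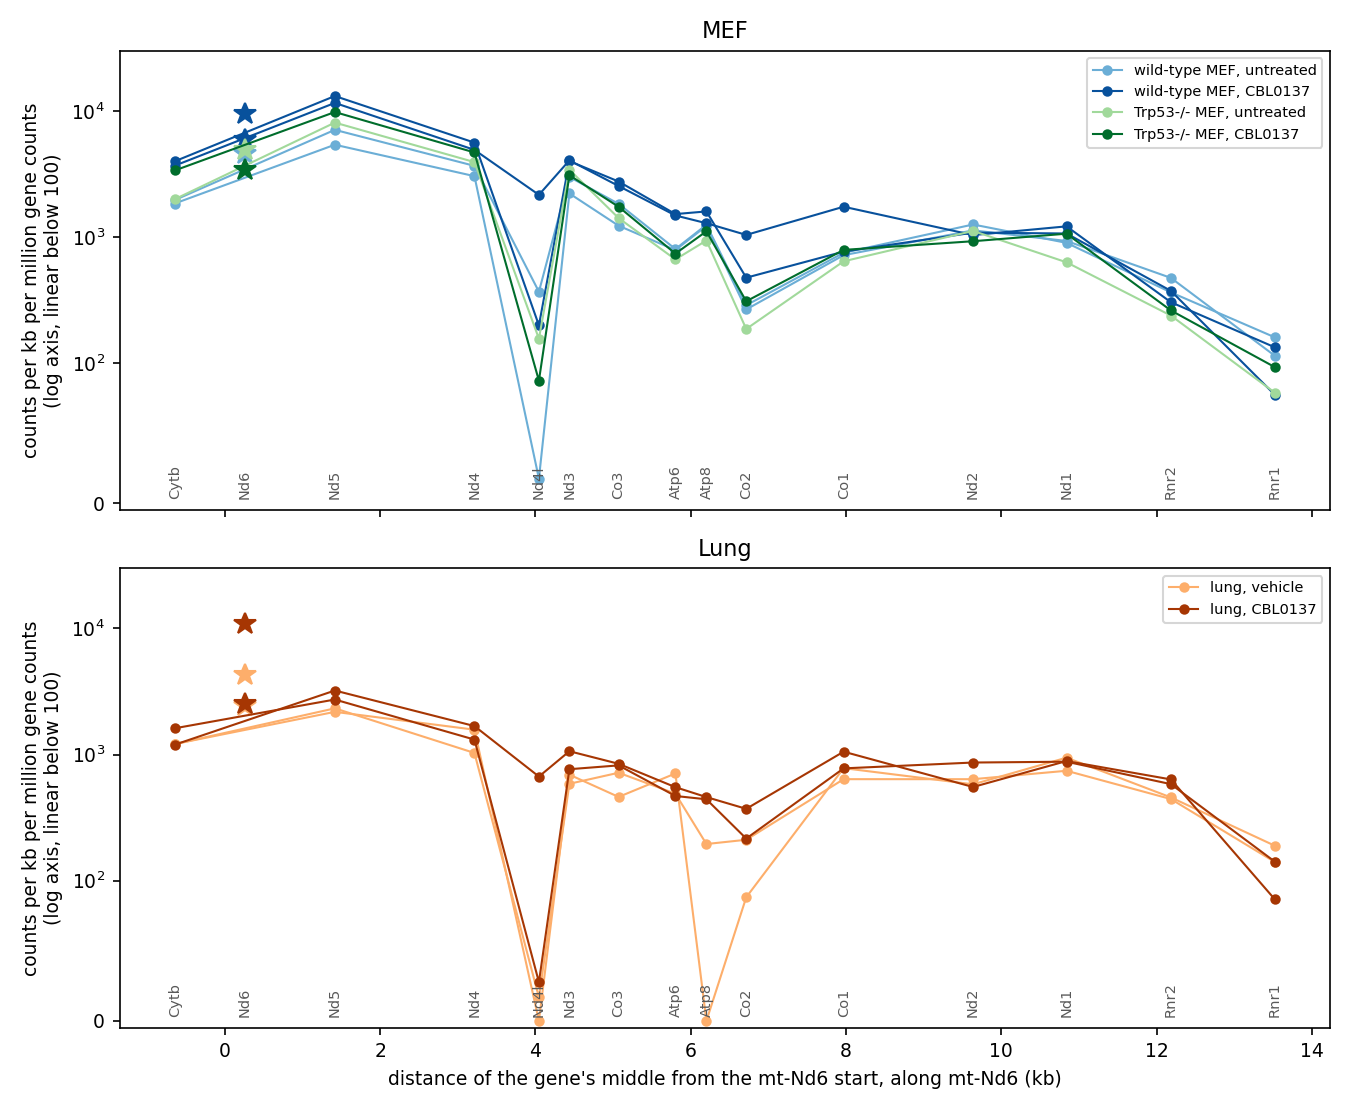
CPM per kilobase are plotted on a log axis (linear below 100) against the distance of each gene's middle from the mt-Nd6 start, for MEF (top) and lung (bottom), with 1 line per library over the heavy-strand genes and a star for mt-Nd6. mt-Nd5 is the highest point of every line, mt-Nd4l, which has an identical nuclear copy, is low in 8 of 10 lines, and mt-Nd5 is 11.4 to 38.1 times mt-Rnr2 in MEF and 4.69 to 5.24 times in lung.

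The ratio of mt-Nd5 to genes farther along differed between MEF and lung for some genes and overlapped for others. In wild-type MEF mt-Nd5 had 19.4 and 11.4 times the reads per kilobase of mt-Rnr2, the 16S ribosomal RNA gene, without treatment and 35.1 and 38.1 times with CBL0137. In Trp53-/- MEF it had 33.9 times without treatment and 37.4 times with it. In lung the ratio was 5.24 and 4.77 with vehicle and 5.07 and 4.69 with CBL0137. For mt-Rnr2 every MEF library thus lay above every lung library. The ratio of mt-Nd5 to mt-Nd1, a complex I gene between mt-Nd5 and the rRNA genes with no near-identical copy, showed the same order, with 5.80 to 12.8 in the 6 MEF libraries and 2.31 to 3.63 in the 4 lungs. mt-Nd2, another complex I gene, has a counted copy, Gm13339, at 96.7% identity over 510 of its 1038 bases. Its ratio was 4.78 to 12.1 in MEF and 3.16 to 5.82 in lung, and the first treated lung lay above both untreated wild-type MEF libraries. Spearman's rho with distance over 13 genes overlapped as well, with -0.929 to -0.571 in MEF and -0.604 to -0.280 in lung. These values are taken within a library and do not depend on its depth or scaling.

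As a share of all gene counts, mitochondrial genes made up 3.09% (95% Wilson interval 3.0 to 3.19) and 2.53% (2.46 to 2.60) in wild-type MEF without treatment and 5.05% (4.89 to 5.22) and 4.67% (4.59 to 4.75) with CBL0137. Vehicle lungs held 1.28% (1.23 to 1.33) and 1.45% (1.28 to 1.65), and CBL0137-treated lungs 2.14% (2.07 to 2.21) and 1.54% (1.5 to 1.59). Trp53-/- MEF held 3.13% (3.05 to 3.21) without and 3.71% (3.66 to 3.76) with CBL0137. In both wild-type MEF and lung each treated library lay above each control library, and all 4 lungs lay below all 6 MEF libraries. In lung the nearest shares were 1.54% treated and 1.45% vehicle, the latter from 241 reads with an interval that holds 1.54. The higher treated lung, at 2.14%, is the one that stood apart in its nuclear copies. The intervals and the 3-read limit cover counting error only. Per 1000000 reads in the file wild-type MEF had 248 and 273 mitochondrial reads without and 418 and 540 with CBL0137. Lungs had 142 and 165 with vehicle and 216 and 168 with CBL0137, and Trp53-/- MEF had 247 without and 389 with CBL0137. The order of treated and control was the same in every group, with a near tie of 168 and 165 in lung.

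The means followed. The share of gene counts was 2.81% ± 0.402 (SD, n = 2) in wild-type MEF left untreated and 4.86% ± 0.267 (SD, n = 2) in those given CBL0137, and 1.37% ± 0.121 and 1.84% ± 0.419 (SD, n = 2 each) in vehicle and treated lung. Over both treatments the 4 lungs averaged 1.60% and the 4 wild-type MEF libraries 3.83%, a difference of -2.23 percentage points, and per 1000000 reads of the file 173 against 370. The difference of shares was -2.67 without the second untreated wild-type MEF library and -1.82 without the first treated one. No test is given for these sums over the genes. Tissue cannot be told apart here from strain, age and culture, and in whole lung fewer cells of a type cannot be told apart from less RNA per cell.

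**Figure D3:**
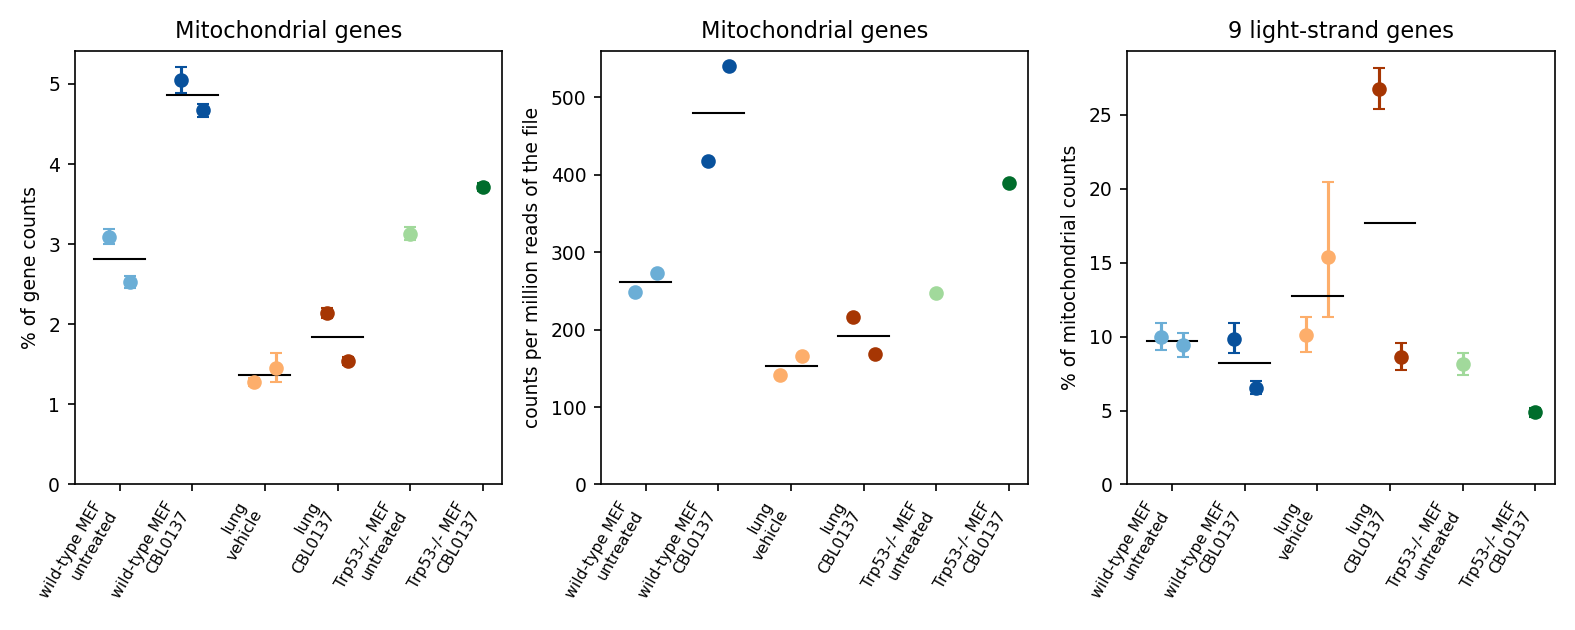
Each point is 1 library, with mitochondrial reads as percent of gene counts (left) and per 1000000 reads of the file (middle), and the 9 light-strand genes as percent of mitochondrial reads (right); bars are 95% Wilson intervals and lines are means of 2. Treated wild-type MEF (5.05% and 4.67%) lie highest and lungs (1.28% to 2.14%) lowest in the left panel, and the first CBL0137-treated lung (26.7%) stands apart in the right panel.

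The light-strand genes, almost wholly mt-Nd6, made up 9.97% and 9.41% of mitochondrial reads in wild-type MEF without treatment and 9.85% and 6.56% with CBL0137. In Trp53-/- MEF they made up 8.12% without and 4.88% with CBL0137. In lung they made up 10.1% and 15.4% with vehicle and 26.7% and 8.60% with CBL0137. The treated lungs thus lay on both sides of the vehicle lungs. The 95% Wilson interval was 25.4% to 28.2% for the first treated lung and 11.3% to 20.4% for the shallow vehicle lung. The mean was 15.2% over 4 lungs and 8.94% over 4 wild-type MEF libraries, a difference of 6.25 percentage points that was 2.40 without the first treated lung.

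Per kilobase mt-Nd6 held more reads than the heavy-strand protein genes as a class in every library. The ratio was 2.37 and 2.23 in wild-type MEF without treatment and 2.28 and 1.49 with CBL0137. It was 2.48 and 4.11 in vehicle lungs, 8.17 and 2.09 in lungs given CBL0137, and 1.87 and 1.06 in Trp53-/- MEF without and with CBL0137. The first treated lung again stood apart, and the others lay between 1.06 and 4.11. Against mt-Nd5 alone mt-Nd6 was lower in some libraries and higher in others, with mt-Nd5 at 0.295 to 2.88 times its level per kilobase.

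The 2 rRNA genes took 2.36% and 3.40% of mitochondrial reads in wild-type MEF without treatment, 1.32% and 1.30% with CBL0137, 1.45% and 1.37% in Trp53-/- MEF, and 5.09% to 6.85% in lung. The lungs all lay above all MEF libraries. The kit removes ribosomal RNA, and its part in these values was not tested.

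The first comparison asked what CBL0137 changed in wild-type MEF. Of the 15 mitochondrial genes with enough reads to test, 3 rose, 0 fell, and 12 did not pass. Reads were higher on 4.21% of the 1757 genes tested in this comparison and lower on 4.27%. mt-Cytb, a subunit of complex III, had 2246 and 2110 CPM in untreated and 4557 and 4207 in treated libraries, a log2 fold change of 0.92 (SE 0.142, edgeR's quasi-likelihood test, Benjamini-Hochberg adjusted p over all genes = 0.0226). Both treated libraries were high and both untreated ones low, with a wide gap between them.

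mt-Nd5 had 12913 and 9840 CPM in untreated and 23940 and 21112 in treated libraries, a log2 fold change of 0.90 (SE 0.178, edgeR adjusted p = 0.0419). mt-Atp6, a subunit of the ATP synthase, had 547 and 537 against 1036 and 1010, with 0.83 (SE 0.158, edgeR adjusted p = 0.0390). The groups did not overlap for either gene. mt-Atp6 has an identical nuclear copy that was not among the gene identifiers counted, while the best copies of mt-Nd5 and mt-Cytb match at 95.2% and 92.9%.

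mt-Nd4 and mt-Co2 missed the threshold, with log2 fold changes of 0.56 (edgeR adjusted p = 0.0850) and 1.43 (edgeR adjusted p = 0.0767). The value of mt-Co2 was 0.64 without the second treated library, which stood apart in its nuclear copies, and 0.82 with the reads of the copies added. mt-Nd6 had 3062 and 2344 CPM in untreated and 4868 and 3062 in treated libraries, a log2 fold change of 0.46 (SE 0.260, edgeR adjusted p = 0.308). The groups met at 3062. The 2 genes at the far end had lower estimates: mt-Rnr2 had 576 and 750 CPM in untreated and 592 and 481 in treated libraries (log2 fold change -0.42, SE 0.223, edgeR adjusted p = 0.281), and mt-Rnr1 had a log2 fold change of -0.32 (edgeR adjusted p = 0.661).

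Over the 15 genes the median log2 fold change was 0.56, beside 0.0059 over all genes tested, and 12 were positive. 1 of the 12, mt-Co1, had 0.70, and -0.08 without the second treated library. With all 10 libraries scaled together by TMM, both treated libraries lay above both untreated ones for 9 genes. They lay below for 2 (mt-Rnr2 and mt-Nd2). Of all genes tested, 26.4% had both treated libraries above and 29.9% both below. The test itself was scaled on the wild-type MEF libraries alone. The 9 include near ties. mt-Atp8 had 293 and 301 untreated and 312 and 306 treated, and the nearest values of mt-Nd6 were 3520 and 3574. Of the fibroblast genes Col3a1 fell (log2 fold change -2.58, edgeR adjusted p = 0.0491), and the sum of the 8 fibroblast genes was 135 to 163 CPM in treated against 386 to 620 in untreated libraries, whose part in the mitochondrial values was not tested. The calls changed with the fit. DESeq2, the fit of 8 wild-type libraries and the fit of all 10 libraries called 0 of the genes, as did the fit without either untreated library, while the fit without the first treated library called 6. Library size from all reads of the file and the fit without a filter each called 2, mt-Co2 and mt-Nd4l, and none of mt-Cytb, mt-Nd5 and mt-Atp6. Without the second treated library mt-Nd5 and mt-Cytb were called, and 4 genes were called with the reads of the copies added.

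The same comparison in lung called none of 14 mitochondrial genes. None of the 2377 genes tested passed (0%), with 74 genes at an unadjusted p under 0.05 and 0 called by DESeq2 as well. 1 of the 74 was mt-Nd6, with 1265 and 2232 CPM with vehicle and 5678 and 1300 with CBL0137, a log2 fold change of 1.30 (SE 0.565, edgeR adjusted p = 1.00). The second treated lung lay between the 2 vehicle lungs, and without the first the estimate was -0.18. mt-Nd5 had 4244 and 3981 CPM with vehicle and 5877 and 4986 with CBL0137, a log2 fold change of 0.57 (SE 0.361). Its groups did not overlap.

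The median over the 14 genes was 0.56, beside 0.087 over all genes, and 13 were positive. This median was 0.32 without the first treated lung, 0.73 without the second and 0.43 with the reads of the copies added. With library size from all reads of the file it was 0.30, beside -0.12 over all genes. With all 10 libraries scaled together by TMM, both treated lungs lay above both vehicle lungs for 10 genes, against 22.8% of all genes tested. The exceptions were mt-Rnr1 (-0.27), mt-Nd2 (0.33), mt-Atp6 (0.03) and mt-Nd6. In CPM, without TMM, the groups of mt-Nd1, mt-Co1, mt-Nd4 and mt-Cytb overlapped as well. The TMM factor of the shallow vehicle lung was 1.46, which lowers its scaled values. mt-Co1 and mt-Co2, whose values are not comparable in the first treated lung, are among the 10. With library size taken from all reads of the file the estimate of mt-Atp6 was -0.23. Without the second treated lung 2 genes passed, mt-Nd6 among them with a log2 fold change of 2.11, which then rested on the first treated lung alone.

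Vehicle lung was next compared with untreated wild-type MEF, in a fit of the 8 wild-type libraries as 4 groups. Of 15 genes tested, 7 were lower in lung and 0 higher, while 11.2% of the 2899 genes tested were lower. The 7 were 4 subunits of complex I (mt-Nd2, mt-Nd3, mt-Nd4 and mt-Nd5), mt-Cytb of complex III, mt-Co3 of complex IV and mt-Atp8 of the ATP synthase. mt-Nd5 had 4244 and 3981 CPM in vehicle lung and 12913 and 9840 in untreated MEF, a log2 difference of -1.89 (SE 0.305, edgeR adjusted p = 0.000955). mt-Nd4 had 1420 and 2171 against 5053 and 4188, with -1.85 (SE 0.305, edgeR adjusted p = 0.00109). Both lungs lay well below both MEF libraries for these 2 genes.

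mt-Nd3 had 204 and 241 CPM in lung and 1043 and 771 in MEF, a log2 difference of -2.46 (SE 0.370, edgeR adjusted p = 0.000547). mt-Atp8, the shortest of the protein genes, had 39.8 and 0 against 255 and 250, with -3.16 (SE 0.549, edgeR adjusted p = 0.00157), from 8 and 0 reads in lung. The 0 lies in the shallow library, where 3 reads would be 181 CPM. The other called genes were mt-Co3 (-1.64, edgeR adjusted p = 0.00454), mt-Nd2 (-1.34, edgeR adjusted p = 0.00907) and mt-Cytb (-1.07, edgeR adjusted p = 0.0160).

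mt-Rnr1 and mt-Rnr2 differed least, with log2 differences of -0.22 (SE 0.502) and -0.32 (SE 0.316), and mt-Nd1 and mt-Co1 followed with -0.58 and -0.50. mt-Nd6 had 1265 and 2232 CPM in lung and 3062 and 2344 in MEF, with -1.14 (SE 0.544, edgeR adjusted p = 0.159). All 15 estimates were negative, with a median of -1.14 beside -0.11 over all genes. With all 10 libraries scaled together by TMM, both lungs lay below both MEF libraries for 13, against 35% of all genes. In CPM, without TMM, mt-Nd1 (712 and 905 in lung, 860 and 891 in MEF) and mt-Co1 (986 and 1206, 1159 and 1110) overlapped. Library size from all reads of the file moved the median of all genes to 0.52 and of the 15 to -0.40. On that scale mt-Rnr1, mt-Rnr2, mt-Nd1 and mt-Co1 turned positive, and 4 genes were called lower (mt-Atp8, mt-Nd3, mt-Nd4 and mt-Nd5). Without the first untreated wild-type MEF library the same 4 were called. Those 4 passed under all 17 alternatives run. Without both treated libraries that stood apart 8 genes were called.

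**Figure D4:**
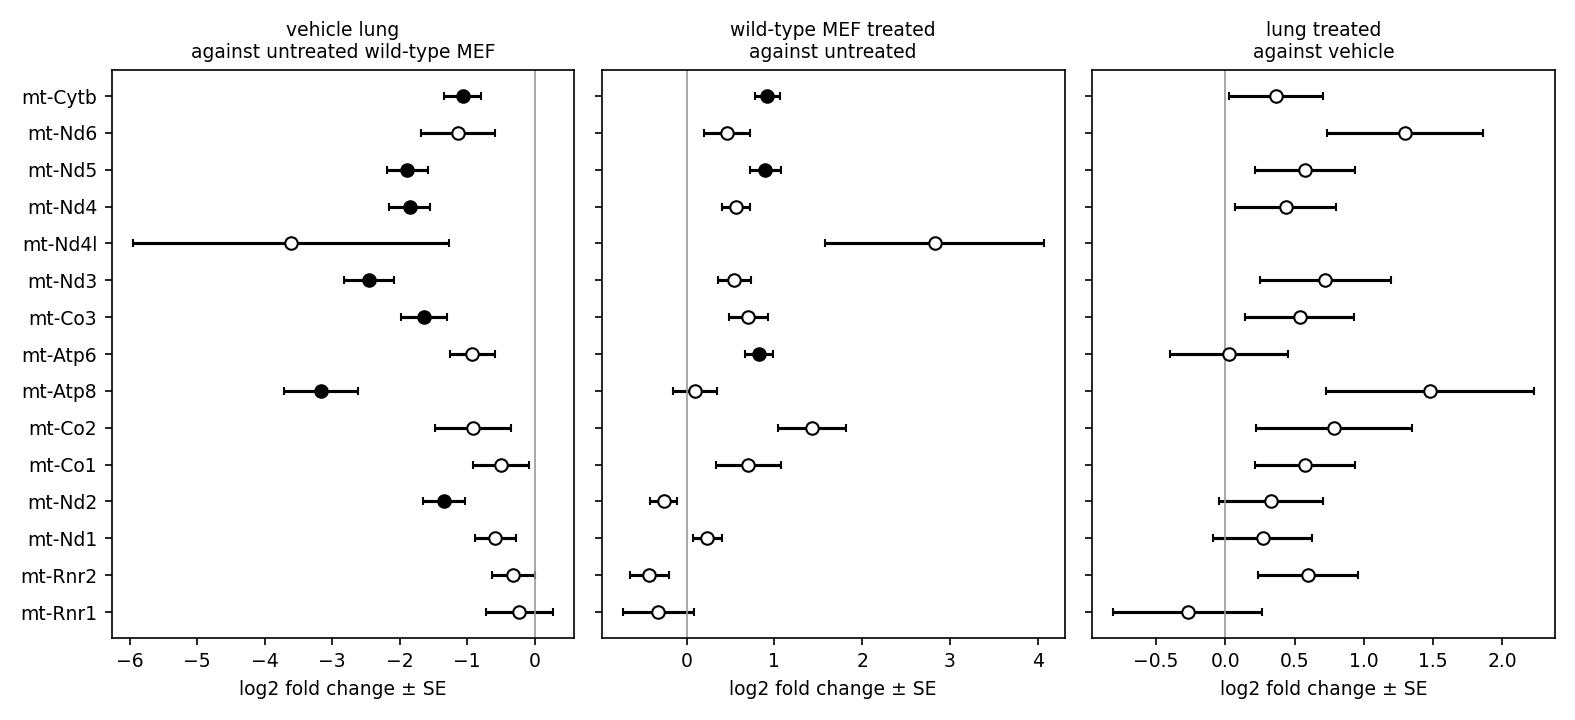
Log2 fold changes from edgeR for 15 mitochondrial genes, ordered from mt-Cytb through mt-Nd6 to mt-Rnr1, in 3 comparisons (14 genes in the third). Bars are SE, taken as the absolute log2 fold change over the square root of the test's F statistic. Each panel has its own horizontal scale, and filled points mark genes at an adjusted p below 0.05. In the first panel all points lie left of 0 and the 7 filled ones reach -3.16, and in the second 3 points are filled, between 0.83 and 0.92.

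Whether CBL0137 acted differently in lung and MEF was tested as an interaction. 0 of 15 mitochondrial genes passed with edgeR and 0 with DESeq2, with 1 gene at an unadjusted p under 0.05, and 0.276% of all 2899 genes passed. That gene was mt-Rnr2, whose effect in lung exceeded that in MEF by 1.03 on the log2 scale (SE 0.437, edgeR adjusted p = 0.560). The 15 estimates ran from -0.78 to 1.49, 8 of them positive. Their SE ran from 0.383 to 2.68.

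Trp53-/- MEF had 1 library per treatment, so the values have no replicate check. As a ratio of CPM, treated over untreated, all mitochondrial genes gave 1.19 (95% exact counting interval 1.15 to 1.22), the heavy-strand genes 1.23 (1.19 to 1.27) and the light-strand genes 0.712 (0.636 to 0.799). mt-Cytb went from 2280 to 3855 CPM, a ratio of 1.69 (1.52 to 1.89), mt-Nd5 from 14740 to 17872 (1.21, 1.16 to 1.27) and mt-Nd6 from 2523 to 1763 (0.699, 0.623 to 0.785). Over the 15 protein and rRNA genes the ratios ran from 0.560 for mt-Nd4l to 1.69 for mt-Cytb. The intervals cover counting error only and say nothing about the spread between cultures.

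The nuclear genes that make and handle mitochondrial RNA were looked up from a list of 38, all present in the tables and 9 without a read in any library. The genes for the mitochondrial RNA polymerase, Polrmt, and for the transcription and packaging factor Tfam were at 0 in all 10 libraries. Of the list 8 genes could be tested in wild-type MEF, 7 in lungs and 10 in the comparison of tissues and the interaction. None passed under CBL0137 in either source or in the interaction. In vehicle lung against untreated MEF, 2 of the 10 tested were lower, beside 11.2% of all genes tested. Polg, the mitochondrial DNA polymerase, had a log2 difference of -4.68 (SE 1.19, edgeR adjusted p = 0.0141). It rests on 1 and 0 reads in lung, the 0 in the shallow library, and 9 and 28 in MEF. Fastk, a mitochondrial RNA-binding protein, had -1.19 (SE 0.382, edgeR adjusted p = 0.0414). These too are reads listed under the genes, with the strand in doubt.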

How the data were processed

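RNA-seq libraries (TruSeq Stranded Total RNA with Ribo-Zero) were aligned by the authors with TopHat2 2.0.9, and reads per gene were counted with HTSeq on GRCm38, per the labels and the submitters' processing notes. The deposited files hold whole-number counts per gene, without normalization, 1 file per library. The counting strand, mode and annotation release are not given in the sources used here. Of the identifiers, 94.9% were in GENCODE M21, which gave strand, length and sequence. The 5 summary rows (no gene, ambiguous and the like) were left out of library sizes. The rows for reads not aligned or not unique were 0.

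Genes with enough counts (filterByExpr, minimum count 10, minimum total 15) were tested over the whole table with edgeR 4.0.16 in R 4.3.3 (TMM, quasi-likelihood test, Benjamini-Hochberg threshold 0.05), for CBL0137 in wild-type MEF and in lung separately, and with 8 wild-type libraries in 4 groups for tissue and interaction. Each p-value sets a group difference against the spread between these libraries, estimated with information shared across genes. The SE given is not an output of edgeR. It was taken as the absolute log2 fold change over the square root of the test's F statistic, and is approximate. Scripts were tested on simulated data. Alternatives were DESeq2 1.42.0, RLE factors, other library sizes, no filter, other sets of libraries in the fit and each library left out. Adding nuclear copies and leaving out both libraries that stood apart were chosen after seeing the data. Shares, per-kilobase values and Wilson intervals were computed in Python 3.11.15 with pandas 2.3.3 and SciPy 1.17.1. A permutation test of the shares had been planned and is not given, because the shares are sums over chosen genes.

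The members and gene lists were chosen with earlier results of these data known. All mitochondrial genes were described by class. Nuclear genes were named only from the lists of nuclear copies, mitochondrial RNA genes and cell markers. Nuclear copies were found with blastn 2.17.0 between GENCODE transcripts (at least 90% identity over 100 bases), in place of a search of the genome. In pairs of replicate libraries the chi-square per degree of freedom was 1.32 for the vehicle lungs and 3.06 to 10.1 for the other pairs. Over the mitochondrial genes alone it was 1.34 for vehicle lungs and 3.46 for untreated wild-type MEF. For the treated pairs it was 11.6 in wild-type MEF and 38.7 in lung, above the values over all genes (4.73 and 10.1). Draws from a single library would give a value near 1. For the vehicle lungs, with 16579 gene counts in the second, the check therefore cannot tell a repeat from a replicate. No library was treated as a duplicate.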

Additional observations from a re-analysis of the deposited data

Results flagged for a closer look

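mt-Rnr2, the 16S ribosomal RNA gene, had estimates of opposite sign after CBL0137, -0.42 in wild-type MEF and 0.60 in lung on the log2 scale, and passed edgeR's test in neither (adjusted p = 0.281 and 1.00). After TMM scaling both treated wild-type MEF libraries lay below both untreated ones and both treated lungs above both vehicle lungs, and the effect in lung exceeded that in MEF by 1.03 on the log2 scale. The interaction was not called by edgeR (adjusted p = 0.560). In counts per 1000000 gene counts, without TMM, the MEF groups overlap, with 576 and 750 untreated and 592 and 481 treated, while the lungs had 702 and 724 with vehicle and 1005 and 923 with CBL0137.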

How the results depend on the processing

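No paired analysis was possible because the labels give no replicate numbers. No result reversed its direction while past the threshold. The number of mitochondrial genes called after CBL0137 in wild-type MEF, 3, was 0 with DESeq2, with all 10 libraries in one fit and with the 8 wild-type libraries in one fit, 2 with library size from all reads of the file or no filter (neither of the 2 among the 3), and ranged from 0 to 6 with 1 library left out. In lung it was 0, and 0 to 2 with 1 left out. Between vehicle lung and untreated MEF it was 7, and 4 with library size from all reads of the file and 4 without a filter, with a range of 4 to 8 with 1 library left out. The interaction called 0 throughout. The 6 in wild-type MEF included mt-Co1, mt-Co2 and mt-Nd4l, which are not comparable in the treated library left in that fit. For lung minus wild-type MEF the share of gene counts ranged from -2.67 to -1.82 percentage points with 1 library left out, and the share of file reads from -238 to -141 per 1000000. The cause was not tested. Of the other values for single genes, 787 kept their side of the threshold, 41 lost a call and 14 gained one. The 787 include genes called in neither fit, and only a called gene can lose a call. In wild-type MEF mt-Atp6 lost its call in 8 of 12 alternatives, and mt-Cytb and mt-Nd5 in 7 of 12 each. Between vehicle lung and untreated MEF mt-Cytb lost its call in 10 of 17, mt-Nd2 in 6 and mt-Co3 in 3. Depth limits genes with few reads, such as mt-Rnr1 (223 in all), mt-Nd4l (257), mt-Atp8 (379) and the tRNA genes, and the second vehicle lung, with 241 mitochondrial reads, limits every lung comparison.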

Other observations

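The nuclear copies of mitochondrial genes were themselves read off the same fits. Gm10222, whose sequence is nearly all identical to mt-Nd4l, was lower in vehicle lung than in untreated wild-type MEF (log2 difference -2.07, SE 0.370, edgeR adjusted p = 0.00181), with 34 and 3 reads in lung and 87 and 94 in MEF. None of the 7 copies tested in wild-type MEF and none of the 6 in lung passed after CBL0137. Gm11408, a copy of mt-Nd6, had 0 reads in the second treated wild-type MEF library, where mt-Nd6 had 840, and 16 beside 329 in the first.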
